A study of Nothobranchius furzeri with 3 samples.

Results

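In a small RNA count table of turquoise killifish (Nothobranchius furzeri) skin, 89 of 324 rows carry only a prediction number (pred_9 to pred_814) where the other 235 carry a miRNA or miRNA family name. A name need not mark an established killifish miRNA, and rows such as mir-BART15, mir-BHRF1, lsy-6 and MIR396 are among the 235. The members described here are all rows with the prefix pred, chosen by name alone and not by their counts. The table covers 3 skin libraries, numbered 1 to 3 by accession, and all of them come from 39-week-old MZM-04/10p males. All samples share strain, sex, age and tissue, and no allele, agent or second condition is given, so differences below are between libraries and not between conditions. Whether the libraries stem from separate fish is not stated in the labels. The p-values below cover only these libraries, whose differences may be partly technical.

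A microRNA is a short RNA cut from a hairpin precursor by the nucleases Drosha and Dicer. It is loaded onto an Argonaute protein and pairs with messenger RNAs mainly through its seed near the 5′ end. Prediction programs look in small RNA reads for stacks of reads that fit the arms of such a hairpin, and a candidate whose sequence resembles no known family is commonly left with a running number. A candidate of this kind may be a miRNA of 1 lineage, or a fragment of another RNA that folds in a similar way. How these rows were predicted, in which tissue and what their numbers stand for is not given in the sources used here. No function is known here for any of them, so the account is of level, rank and spread.

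The libraries held 5021238, 8545292 and 9590428 counts for libraries 1, 2 and 3. The epidermal mir-205 had 287034, 552862 and 739299 counts and the neuronal mir-124 had 19, 46 and 22. All 7 fixed marker lists of cell types had counts in every library for each of their members analysed here (mir-206 of the striated muscle list was not analysed). CPM below is counts per 1000000 of the library total, unscaled unless TMM scaling (edgeR's trimmed mean of M-values) is named. Intervals are 95% exact binomial (Clopper-Pearson), and they cover counting error only.

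Few of the predicted miRNAs were well covered in skin, and 1 of them, pred_586, supplied most of their counts. Of the 89 predicted rows, 66 had at least 1 count in some library and 27 had a count in every library, against 200 and 173 of the 235 named rows. No count in any library was seen for 23 predicted and 35 named rows. A count of 0 was taken to allow up to 3 counts, a limit set apart from the binomial intervals, or 0.597, 0.351 and 0.313 CPM in libraries 1, 2 and 3, so these 23 rows were not detectable at this depth.

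The share of predicted rows past a count limit dropped steeply at low limits. At a limit of 3 counts in every library, 16.9% of predicted rows passed, against 66.4% of named rows. At 10 counts 8.99% of predicted and 57.4% of named rows passed. At 100 counts 6.74% of predicted and 40.4% of named rows did, and at 1000 counts 4.49% of predicted and 25.1% of named rows. At the higher limits, 7 predicted rows had at least 30 counts in every library, 6 had at least 100 and 4 had at least 1000, against 119, 95 and 59 named rows. Mean counts were 10 to 100 in 4 predicted rows, 100 to 1000 in 2 and at least 1000 in 5. Named rows numbered 39, 38 and 70 in these classes.

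Within each library the share of predicted rows with at least 10 counts lay below that of named rows. The share of predicted rows at this limit was 10.1%, 13.5% and 14.6% in libraries 1, 2 and 3, and that of named rows was 58.7%, 64.3% and 66.0%. The difference, predicted minus named, was -50.2 ± 1.44 percentage points (SD, n = 3) and had the same sign in 3 of 3 libraries. The exact two-sided sign-flip permutation test gave p = 0.25, the smallest that 3 libraries allow. With every library thinned to the smallest total, the expected difference was -49.8.

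**Figure D1:**
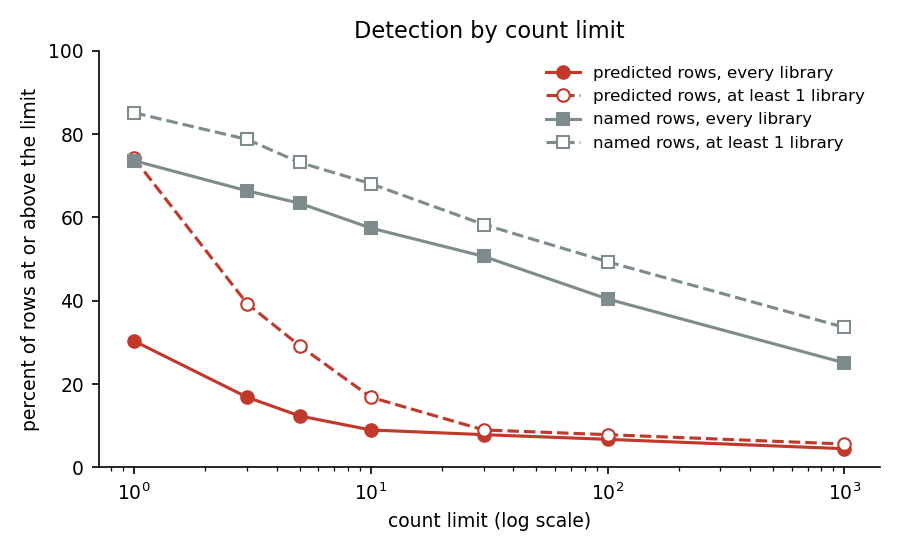
Percent of the 89 predicted rows (circles) and 235 named rows (squares) at or above a count limit, in every library (solid) or in at least 1 library (dashed), with the limit on a log axis. In every library, 30.3% of predicted and 73.6% of named rows had at least 1 count, and 8.99% of predicted and 57.4% of named rows had at least 10.

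The rarely seen predicted rows were at the level of single reads. In exactly 1 library, 26 predicted rows had counts, against 9 named rows, and 20 of these 26 had a single count. Their highest count was 3. These 26 rows were spread over the libraries, with 8 seen only in library 1, 9 only in library 2 and 9 only in library 3. A further 13 predicted rows were seen in 2 libraries, with at most 9 counts in any. No predicted row had 10 or more counts in 1 library and 0 in another. The 78 predicted rows with a mean count below 10 together held 303 counts over the 3 libraries, or 0.226% of all 134205 counts on predicted rows.

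Among these 78 rows, a few had counts that leaned to 1 library, and they are named here after their values were seen. pred_351 had 3, 17 and 1 counts in libraries 1, 2 and 3, pred_303 had 1, 10 and 2, and pred_118 had 1, 9 and 0. pred_196 had 7, 1 and 2 counts. The first 3 were highest in library 2 and the fourth in library 1. The chi-square test described below was also extended down to a mean count of 3. It then called 12 of 26 predicted rows, the 8 called at the limit of 10 and these 4, beside 71.4% of all 196 rows. These 4 were among 15 predicted rows with a mean count of 3 to 10. Over all rows, 140 of 196 were called at the limit of 3 and 129 of 158 at the limit of 10. The share called among named rows of 3 to 10 is not given here, so the 4 have no background of like abundance. Low expected counts make that test approximate, and such counts give no useful fold change.

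All predicted rows together took 0.658% (0.651 to 0.665), 0.638% (0.633 to 0.643) and 0.486% (0.482 to 0.491) of counts in libraries 1, 2 and 3. Without pred_586 they took 0.160%, 0.311% and 0.154%. The total was thus lowest in library 3, while the part outside pred_586 was highest in library 2.

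pred_586 made up 75.7%, 51.3% and 68.3% of the predicted counts in libraries 1, 2 and 3, a mean of 65.1% ± 12.5 (SD, n = 3). With pred_580 the share was 81.6% ± 7.90, with pred_717 89.9% ± 5.03 and with pred_484 95.2% ± 2.29. These 4 rows came in the same order in all 3 libraries. After them the order differed: pred_185 came next in library 1 and pred_770 in libraries 2 and 3. The named counts were spread over more rows, with the leading row at 15.8% ± 3.73 and the leading 4 at 57.5% ± 5.10 of named counts.

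**Figure D2:**
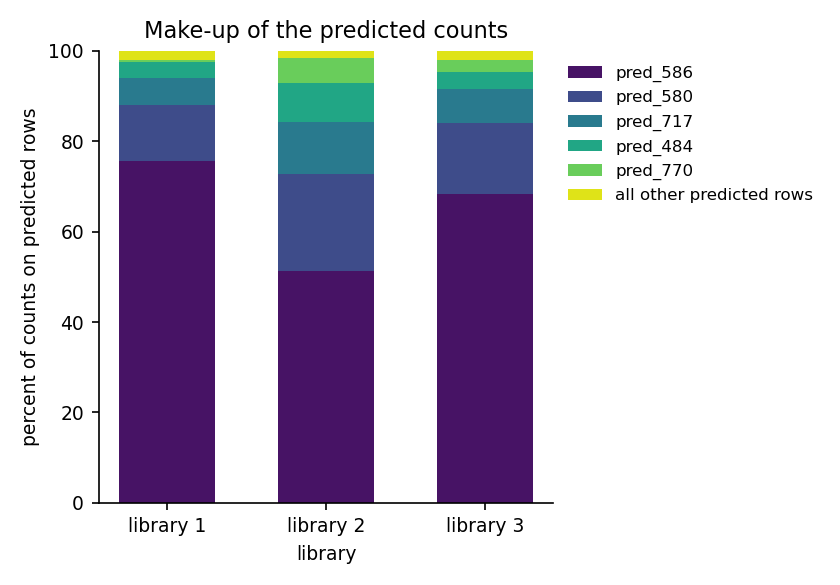
Make-up of the counts on predicted rows in each library, as stacked percent. pred_586 fills 75.7%, 51.3% and 68.3% of the bars of libraries 1, 2 and 3, and pred_770 fills 0.502%, 5.50% and 2.86%.

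By mean CPM, predicted rows held 1 of the leading 25 places of the table, 2 of the leading 50 and 6 of the leading 100, whereas they make up 27.5% of all rows. pred_586 had 4982 CPM (4921 to 5044), 3270 (3232 to 3309) and 3322 (3286 to 3358) in libraries 1, 2 and 3, from 25017, 27944 and 31858 counts. Its mean of 3858 ± 974 CPM put it at rank 22, with 21 named rows above it, and its rank was 18, 23 and 27 in libraries 1, 2 and 3. Its CPM was thus close to that of named miRNAs with known roles. The named row just above it was the endothelial mir-126, at 4048 ± 879 CPM, and the one just below was mir-192, known from gut and liver, at 3668 ± 2382. Neither difference exceeded the SD between libraries. Capture by ligation differs between sequences, so like CPM need not mean like amounts of RNA. Whether a row with a family name covers several miRNAs is not given.

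pred_580 ranked 44, with 814, 1373 and 761 CPM in libraries 1, 2 and 3 and 42 named rows above it. Its neighbours were mir-19, a member of the miR-17-92 clusters, at 984 ± 554 CPM, and mir-3596 at 980 ± 199, against 983 ± 339 for pred_580 itself. pred_717 ranked 53, with 390, 734 and 370 CPM and a mean of 498 ± 205, between mir-458 at 520 ± 22.8 and mir-299 at 414 ± 244. The order of these neighbours could not be separated at this spread.

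The next places were held by pred_484 (rank 60), pred_770 (69), pred_185 (89) and pred_666 (102), with means of 320 ± 201, 174 ± 162, 61.5 ± 35.4 and 26.1 ± 17.3 CPM. Below them came a gap without predicted rows down to pred_238 at rank 144 with 2.81 ± 2.12 CPM. pred_640, pred_706 and pred_814 followed at ranks 150, 152 and 156, with 1.84 ± 0.180, 1.70 ± 0.123 and 1.44 ± 0.524 CPM. At the limit of 10 counts in every library, pred_640 was just inside with 10, 14 and 18 counts. pred_706 with 9, 15 and 15 counts and pred_238 with 12, 8 and 49 were just outside.

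**Figure D3:**
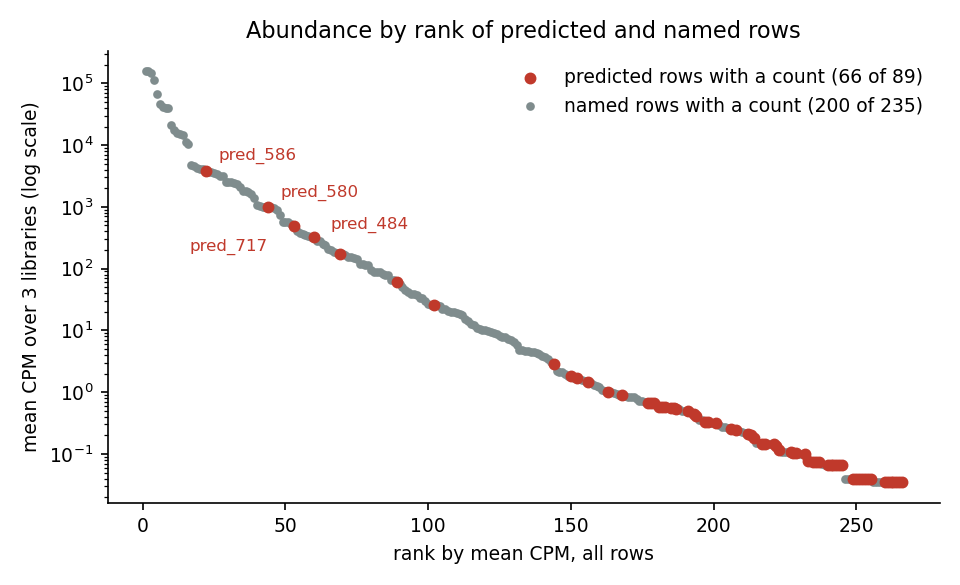
Mean CPM over the 3 libraries (log axis) by rank for every row with a count, predicted rows in red and named rows in grey. pred_586 sits at rank 22, and 7 predicted rows lie above 26 CPM, with the next at 2.81 CPM.

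Of the 89 prediction numbers, 17 also occur as a mir name in the table, where the rows are separate. pred_586 had 25017, 27944 and 31858 counts, while the row mir-586 had 0 in every library. pred_185 had 513, 319 and 432 counts, while mir-185 had 0, 1 and 2. Conversely, pred_16 had 0, 1 and 0 counts and mir-16, a broadly expressed miRNA, had 11846, 24527 and 23343. Other such pairs were both near 0, as pred_574 with 1, 0 and 1 counts and mir-574 with 1, 4 and 0. Some pairs had counts in both rows in every library. pred_580 had 4086, 11732 and 7297 counts beside 36, 103 and 70 for mir-580. pred_770 had 166, 2996 and 1332 beside 13, 17 and 87 for mir-770. These pairs were chosen after their values were seen.

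Most predicted miRNAs that could be tested differed between libraries beyond counting error, as did most rows of the table. Each row's 3 counts were compared with TMM-scaled totals by a chi-square test, with Benjamini-Hochberg adjustment. Over all 158 rows with a mean count of at least 10, it called 129 rows, or 81.6%. Of the 11 predicted rows tested, 8 were called, a share of 72.7% that is near that background. They were the 7 rows with a mean count of at least 100, with an adjusted p of at most 6.47e-29 by this chi-square test, and pred_238. Among rows of that abundance, all 7 predicted rows and 103 of 108 named rows (95.4%) were called. The test compares these libraries, not conditions. By pairs of libraries, 8 of the 11 were called between libraries 1 and 2 (69% of all rows), 7 between 1 and 3 (67.7%) and 7 between 2 and 3 (76.6%).

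A group of 5 rows was highest in library 2 after TMM scaling: pred_580, pred_717, pred_484, pred_770 and pred_666. pred_770 had the widest range, with 166, 2996 and 1332 counts, or 35.2, 354 and 129 TMM-scaled CPM in libraries 1, 2 and 3. Library 2 was thus 10.1-fold above library 1 and library 3 was 3.68-fold above it. This range rests on libraries 1 and 2: it was 2.73-fold without library 1, 3.68-fold without library 2 and 9.32-fold without library 3.

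pred_666 had the same order of libraries as pred_770 at a lower level, with 41, 365 and 264 counts, or 8.69, 43.1 and 25.6 TMM-scaled CPM. Its range was 4.96-fold, and 1.68-fold without library 1 and 2.95-fold without library 2. Both rows were lowest in library 1, the library of lowest depth, whose part in this was not tested.

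The other members of this group were lowest in library 3. pred_484 had 1168, 4703 and 1706 counts, or 247, 555 and 166 TMM-scaled CPM, a 3.35-fold range that was 1.49-fold without library 2 and 2.08-fold without library 3. pred_717 had 1960, 6274 and 3545 counts, or 415, 741 and 344 TMM-scaled CPM, a 2.15-fold range that was 1.21-fold without library 2. pred_580 had 4086, 11732 and 7297 counts, or 866, 1385 and 709 TMM-scaled CPM, a 1.95-fold range that was 1.22-fold without library 2. These rows were grouped for being highest in library 2, so its lead is no result in itself. Libraries 1 and 3 lay closer to each other than to library 2 in these rows.

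Marker miRNAs of several cell types were also highest in library 2 after TMM scaling. The erythroid list (mir-451 and mir-144) took 0.113%, 0.226% and 0.0509% of counts in libraries 1, 2 and 3, and the leukocyte list (mir-142 and mir-223) 0.159%, 0.336% and 0.157%. The neural list (mir-124 and mir-9) took 0.00448%, 0.00759% and 0.00630%, and mir-202, known from fish gonads, 0.00171%, 0.0323% and 0.000313%. The striated muscle list was lowest in library 2, at 1.62%, 0.662% and 2.22%, as was the liver miRNA mir-122, at 0.0135%, 0.00321% and 0.00730%. The epidermis list took 5.99%, 6.75% and 8.23%. Their part in the levels of the predicted rows was not tested. Of the 147 named rows with a mean count of at least 10, 61 were highest in library 2. Of the 11 predicted rows 5 were. In whole tissue, fewer cells of a type and less RNA per cell cannot be told apart.

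pred_586 and pred_185 were highest in library 1. On the TMM scale pred_586 stood at 5301, 3299 and 3095 CPM, a 1.71-fold range that was 1.07-fold without library 1. pred_185 had 108.7, 37.7 and 42.0 TMM-scaled CPM, a 2.89-fold range that was 1.11-fold without library 1. Without that library pred_185 was no longer called (adjusted p = 0.179, chi-square test with Benjamini-Hochberg adjustment). In both rows 1 library stood above an otherwise close pair.

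The 4 rows of lowest level among the 11 gave less certain values. pred_238 had 12, 8 and 49 counts, or 2.54, 0.944 and 4.76 TMM-scaled CPM, and was called with an adjusted p of 1.22e-05 by the chi-square test. Its 5.04-fold range was 1.87-fold without library 2, where the adjusted p was 0.0666, and 2.91-fold without library 3. pred_814 had 7, 8 and 19 counts (adjusted p = 0.306 by the same test), and its 1.95-fold range was 1.24-fold without library 2. pred_640 and pred_706 had the smallest ranges, 1.28-fold and 1.31-fold, with adjusted p of 0.830 and 0.792 by the chi-square test. With 9 to 18 counts in a library, differences of this size were not detectable at this depth.

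**Figure D4:**
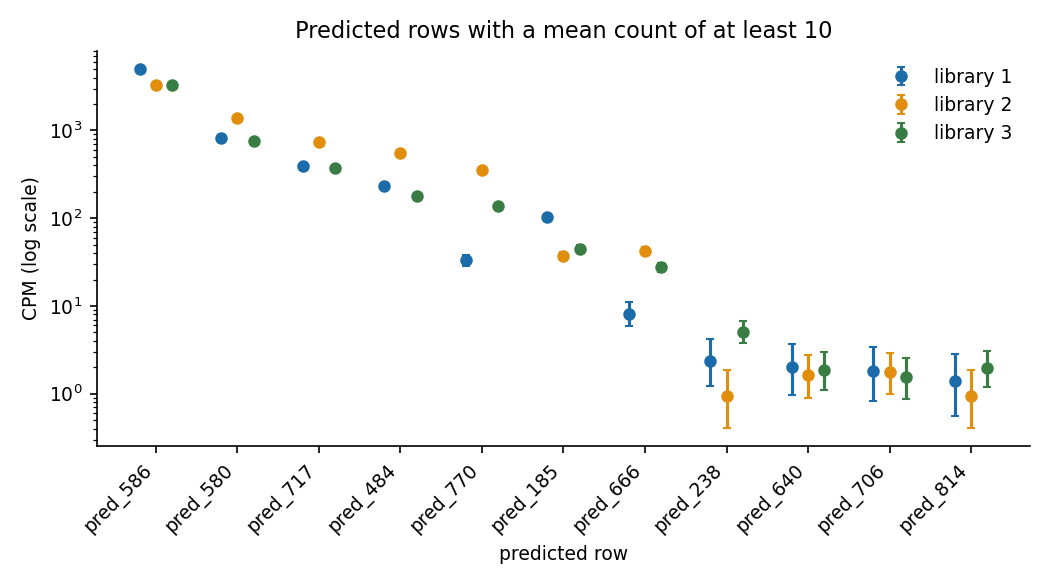
CPM (log axis, unscaled) of the 11 predicted rows with a mean count of at least 10 in libraries 1, 2 and 3, with 95% exact binomial intervals. pred_770 spans 33.1 to 351 CPM between libraries 1 and 2, while the intervals of pred_640, pred_706 and pred_814 overlap in all 3 libraries.

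Since the rows moved apart, ratios between them differed from library to library. pred_586 had 6.12, 2.38 and 4.37 times the counts of pred_580 in libraries 1, 2 and 3, and 151, 9.33 and 23.9 times those of pred_770. Over all 21 pairs of the 7 rows whose mean count was at least 100, the ratio varied 4.41-fold between libraries in the median pair. It varied more than 2-fold in 17 pairs. These pairs share rows, and pairs of named rows were not computed. Taken singly on the TMM scale, 5 of these 7 rows and 48 of 108 named rows of that abundance ranged more than 2-fold. The steadiest pair was pred_580 over pred_717, at 2.08 (1.97 to 2.20), 1.87 (1.81 to 1.93) and 2.06 (1.98 to 2.14), a 1.11-fold range. The least steady was pred_770 over pred_185, at 0.324 (0.270 to 0.386), 9.39 (8.37 to 10.6) and 3.08 (2.76 to 3.44). A library made by ligation captures some sequences better than others, so the ratio itself carries that bias.

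The range of each row between libraries was set beside that of named rows of like abundance. Its median, as highest over lowest library, was 2.15-fold for the 11 predicted rows with a mean count of at least 10 and 1.78 for 147 named rows. With a mean count of 10 to 100 it was 1.63 for 4 predicted and 1.76 for 39 named rows, from 100 to 1000 it was 3.92 for 2 and 2.06 for 38, and from 1000 up it was 2.15 for 5 and 1.74 for 70. The predicted rows lay inside the span of the named rows in each class. From 1000 up, mir-716 alone, at 14.97, lay above pred_770 at 10.06. The next widest named row there, mir-451 at 5.72, lay below pred_770. A ratio above 4 was seen in 3 of 11 predicted rows and in 16 of 147 named rows. These are descriptions of few rows, with no test of a difference.

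Each of the 11 rows was also set beside the 10 named rows nearest to it in mean CPM, 5 above and 5 below. pred_770, pred_666 and pred_238 had wider ranges than all 10 of their neighbours, whose widest ranges were 3.08, 4.51 and 3.69. pred_640 and pred_706 had narrower ranges than all 10 of theirs, whose narrowest was 1.32 for both. pred_586 was wider than 4 of 10 neighbours, pred_580 and pred_814 than 6, pred_717 and pred_185 than 7, and pred_484 than 8. The narrow rows pred_640 and pred_706 had low counts, where such differences were not detectable. The wide row pred_238 also rested on few counts, with 12, 8 and 49 in libraries 1, 2 and 3. Of the 7 rows with a mean count of at least 100, only pred_586 lay below the median of its neighbours, at 1.71 against 1.77. In that class the median range was 2.89 for the 7 predicted rows and 1.79 for 108 named rows. This difference was not tested.

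The common biological coefficient of variation, edgeR's estimate of the spread beyond counting error, was 0.555 for the 11 predicted rows and 0.448 for the 147 named rows. Without pred_770 the predicted value was 0.476, and without mir-202, the widest named row, the named value was 0.415. For rows with a mean count of at least 1000 it was 0.595 for 5 predicted rows and 0.402 for 70 named rows, and 0.428 for the predicted rows without pred_770. No named row was left out in that class. Without pred_770 the predicted rows thus lay nearer the named rows on this measure, though still above them. The distance also depended on single libraries: the predicted and named values were 0.486 and 0.472 without library 1, 0.450 and 0.364 without library 2, and 0.658 and 0.465 without library 3. The leave-outs of single rows were chosen after seeing the data.

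**Figure D5:**
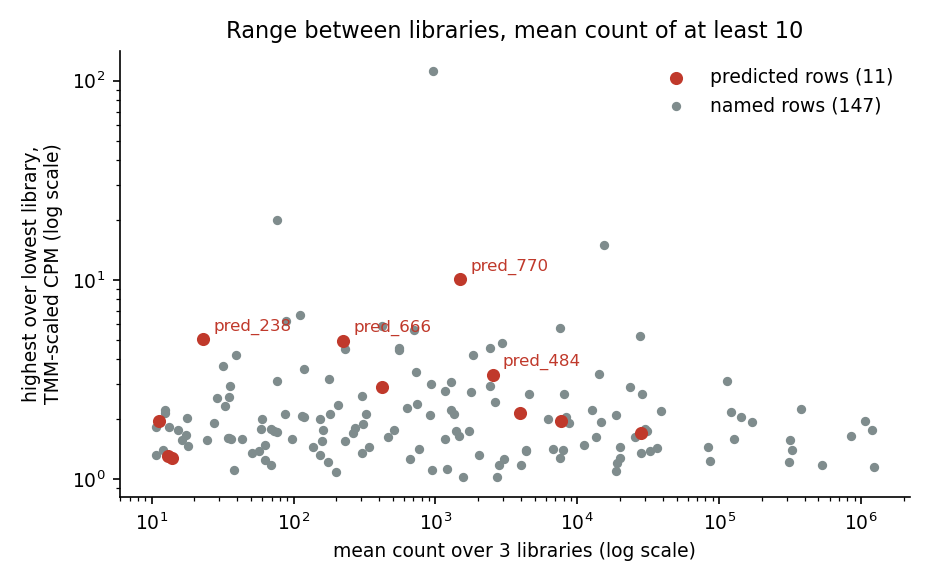
Highest over lowest library (TMM-scaled CPM, log axis) against mean count (log axis) for 11 predicted rows (red) and 147 named rows (grey). pred_770 reaches 10.1 and pred_238 and pred_666 about 5.04 and 4.96, while pred_640 and pred_706 lie at 1.28 and 1.31.

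Correlations between libraries were higher over the predicted rows with a mean count of at least 10 than over the rare ones. Over the 11 rows with a mean count of at least 10, libraries 1 and 2 had a Pearson's r of log2(CPM + 1) of 0.940 and a Spearman's rho of 0.925. Libraries 1 and 3 had r of 0.970 and rho of 0.964, and libraries 2 and 3 had r of 0.981 and rho of 0.907. For the 147 named rows r was 0.973, 0.985 and 0.971 and rho was 0.967, 0.978 and 0.961 in the same order of pairs. The 11 predicted rows fall into 7 of higher and 4 of much lower level, a distance that raises r. Over the 7 with a mean count of 100 or more, r was 0.842, 0.929 and 0.959, a mean of 0.910. For 108 named rows with a mean count of 100 or more r averaged 0.963. Named rows at both limits reached higher levels, up to a mean count of 1229400 for mir-26 against 28273 for pred_586. This wider span also raises r, so the sets were not of like level. By rank the 2 sets lay closer, with a mean rho of 0.940 for the 7 predicted rows and 0.952 for the 108 named rows. Over the 78 predicted rows with a mean count below 10, r averaged 0.491 and rho 0.480, against 0.591 and 0.707 for 88 named rows. These sets include 23 predicted and 35 named rows without a count, which tie in every library. Of the rest, 26 predicted and 12 named rows had a mean count below 1, so the 2 sets differ in make-up. Over all 89 predicted rows r averaged 0.979 while rho averaged 0.673, against 0.987 and 0.978 for the 235 named rows. The r over all predicted rows is set by the few abundant rows against many near 0. These values are across rows, which are not replicates and share library and depth, and they carry no p.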

How the data were processed

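Per the labels' protocols, total RNA went into Illumina TruSeq small RNA libraries. The authors deposited raw read counts per miRNA name, 1 column per library, neither normalized nor pooled. The submitters' processing notes list SAMtools 1.3.1-9, BWA 0.7.12-r1039, Trimmomatic 0.36 and bcl2fastq 1.8.4. Not given in the sources used here are the genome build, how miRNAs were predicted, how reads were assigned and what was done with multiple matches. A predicted row that resembles a named one could lose or share reads. None of the 324 names (0) matched the RefSeq gene table, so no coordinates or sequences are given.

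The members are defined by their names, but this set of rows, like the lists, was chosen for description with earlier results of these data known. Named members were those with at least 10 counts in every library, the 10 highest by mean CPM, and the widest 5 and steadiest 3 by range with a mean count of at least 10. Rows with at least 10 counts in 1 library and 0 in another were also to be named, but there were none. The named rows next to the leading 3 were given too. pred_814 met none of these rules and was described as the remaining predicted row with a mean count of at least 10. TMM factors were 0.94, 0.99 and 1.07. The chi-square test and the coefficient of variation (edgeR 4.0.16, intercept-only design) were tested on simulated data. No groups exist for edgeR's quasi-likelihood test. Thinning used hypergeometric expectations. Alternatives covered scaling by library totals or by DESeq2 1.42.0, limits, denominators and pseudocounts, and each library left out. Software was Python 3.11.15 with pandas 2.3.3, scipy 1.17.1 and numpy 2.4.6, and R 4.3.3. Reads carry no stated molecular identifiers, so intervals and limits cover counting error only.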

Additional observations from a re-analysis of the deposited data

How the results depend on the processing

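No paired analysis was possible because there is only 1 group. The number of predicted rows past the limit was 8 at 10 counts in every library, 27 at 1 count, 15 at 3 counts, and 15 with at least 10 counts in any library, by construction of looser limits. The share of counts was 0.594% ± 0.0939 (SD, n = 3), 0.708% with mir-204, the most abundant row, left out of the total, and 0.208% without pred_586. Of the leading 50 rows 2 were predicted, against 6 of the leading 100. The mean Pearson's r was 0.964 for rows with a mean count of at least 10, 0.910 with a limit of 100, and 0.940 to 0.983 with each library left out. Predicted rows highest in library 2 numbered 5, and 6 to 8 when library 3 or 1 was left out, where only 2 libraries compete. With TMM scaling 8 of the 11 predicted rows tested were called by chi-square, beside 129 of all 158 rows (81.6%). The predicted number was also 8 with DESeq2 or total scaling, and 7 to 8 with a library left out. For predicted rows, coefficients of variation ranged from 0.450 to 0.658 with each library left out. DESeq2's median of single rows, another summary, gave 0.373 for predicted and 0.295 for named rows. Depth limits the rows under about 1 CPM.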
